A study of Homo sapiens with 4 samples.

Results

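The genes of cytokinesis and the central spindle were represented by ANLN, PRC1, ECT2, RACGAP1, CEP55, CIT, DIAPH3 and NUSAP1, chosen by name, and compared between control and PAK1 deficient human mammary cells. All 8 were found among the 27193 gene names of the array, on 11 of its 34127 probes, and all 8 passed the filter on dim probes. MCF10A.B2 cells derive from MCF-10A, a non-tumorigenic line of the human breast epithelium, and express a chimeric ErbB2 (Her2) receptor that a chemical can activate. The 2 control samples are labelled as control cells of this line, wild type for PAK1 (whether they carried an uninduced shRNA cannot be told from the labels), and the 2 PAK1 shRNA samples as the same line with a shRNA targeting PAK1, which the methods describe as tetracycline inducible. The cells of both groups carried the receptor, were grown in horse serum, starved of serum for 3 h and treated for 15 min with AP1510, the crosslinker that activates it. No non-targeting shRNA array was analysed here, so an effect of PAK1 loss and a response to the shRNA itself cannot be told apart. The series text speaks of cells derived from separate tumors, the sample labels name the cell line, and it is not given whether replicates were separate cultures, so p-values measure only the spread between these samples, which may be technical. Each RNA was read on its own 1-colour Agilent array.

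At the end of mitosis, antiparallel microtubules are bundled between the separating chromosomes into the central spindle, which marks the plane where an actin and myosin ring pulls the membrane inwards. Centralspindlin on that spindle recruits the factors that start ring assembly, formins and citron kinase act at the ring, and the remaining bridge is cut at the midbody by ESCRT-III filaments. Most proteins dedicated to these steps are made late in the cell cycle, while septins and ESCRT proteins also work in cells that are not dividing.

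All 8 genes were lower in PAK1 shRNA cells. Each passed an adjusted p of 0.05 from limma with Benjamini-Hochberg adjustment over 21250 genes, of which 32.0% were lower and passed, 30.8% were higher and passed, and 62.8% passed either way. The fall was at least 2-fold in all 8, as in 9.09% of all genes, and ranged from 2.17-fold for ECT2 to 23.4-fold for CEP55, with a median log2 fold change of -3.77 against 0.02 over all genes. Both PAK1 shRNA arrays lay below both control arrays for all 8 genes, as for 39.8% of all genes. The SD within a group was between 0.02 and 0.20 on the log2 scale over the 8 genes, and the smallest distance between the groups was 1.02. For a single gene, the smallest p of an exact permutation test (two-sided) is 0.333 in this design. In whole-culture RNA, fewer dividing cells and less RNA per dividing cell cannot be told apart.

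PRC1 cross-links the antiparallel microtubules of the central spindle. Its probe lies on chromosome 15 from 91509426 to 91509485 (hg19). The normalized log2 intensity of PRC1 was 15.35 and 15.32 in control cells, against 10.96 and 10.82 in PAK1 shRNA cells. The groups stood far apart, with a log2 fold change of -4.45 (95% interval from -4.64 to -4.25, adjusted p = 3e-07 from limma), or 4.58% of the control level. NUSAP1 binds, bundles and stabilizes spindle microtubules, and its probe lies on the same chromosome from 41673178 to 41673237. The log2 intensity of NUSAP1 was 13.88 and 13.84 in control cells and 9.66 and 9.49 in PAK1 shRNA cells. Both PAK1 shRNA arrays were low, and NUSAP1 changed by -4.29 on the log2 scale (95% interval from -4.49 to -4.08, adjusted p = 3.4e-07 from limma).

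RACGAP1, the GTPase activating subunit of centralspindlin, had log2 intensities of 12.25 and 12.33 in control cells and 9.17 and 8.89 in PAK1 shRNA cells. These last 2 differed most from each other here among the 8 genes, with an SD of 0.20, and both remained below the controls. RACGAP1 had a log2 fold change of -3.26 (standard error 0.11, adjusted p = 1.6e-06 from limma), from a probe on chromosome 12 between 50383014 and 50383073. ECT2 is the guanine nucleotide exchange factor that RACGAP1 recruits to the central spindle. The log2 intensity of ECT2 was 11.04 and 11.11 in control cells and 9.88 and 10.02 in PAK1 shRNA cells. The groups did not overlap, but ECT2 had the smallest fall of the 8 genes, with a log2 fold change of -1.12 (95% interval from -1.32 to -0.92, adjusted p = 4.1e-05 from limma), or 46.0% of the control level. Of all genes tested, 7.36% fell further than ECT2, while at most 0.654% fell further than any of the other 7 genes. The single ECT2 probe lies on chromosome 3 from 172538330 to 172538389.

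**Figure D1:**
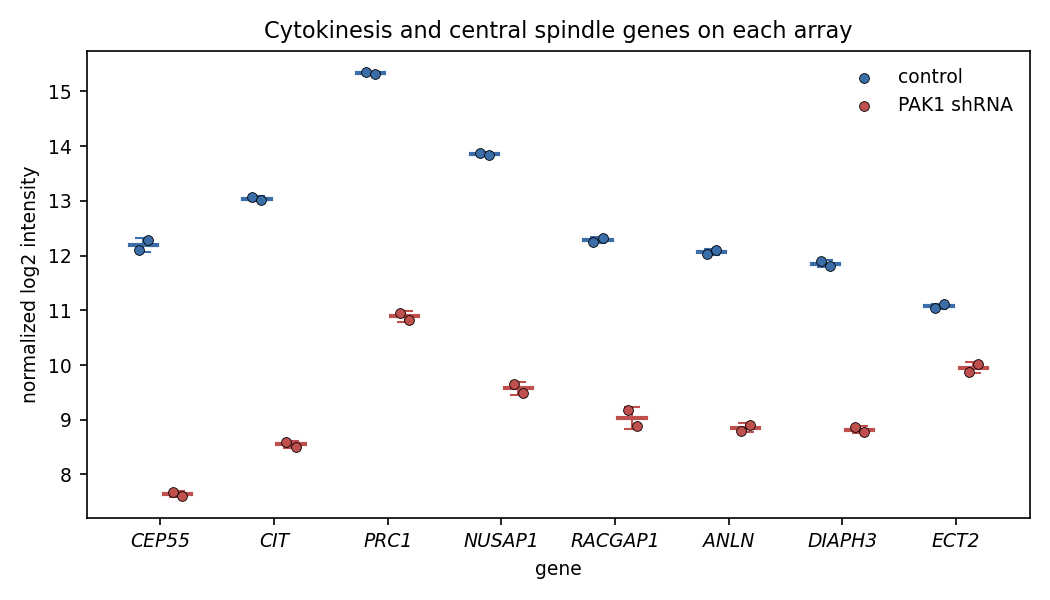
Normalized log2 intensity (vertical axis) of the 8 genes in control and PAK1 shRNA cells; each point is 1 array, each bar the mean of 2 arrays and each error bar the SD. The PAK1 shRNA arrays lie below the control arrays for every gene, most closely for ECT2.

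ANLN encodes anillin, a scaffold that ties actin, myosin and septins together at the cleavage furrow. The log2 intensity of ANLN was 12.03 and 12.11 in control cells and 8.80 and 8.91 in PAK1 shRNA cells. Both PAK1 shRNA arrays were near 10.8% of the control level, a log2 fold change of -3.21 (95% interval from -3.41 to -3.02, adjusted p = 6.2e-07 from limma). The ANLN probe lies on chromosome 7 from 36492587 to 36492646. CIT encodes citron kinase, which organizes the ring and the midbody. On the brighter of its 2 probes, on chromosome 12 from 120123631 to 120123690, CIT had log2 intensities of 13.07 and 13.01 in control cells and 8.60 and 8.50 in PAK1 shRNA cells. CIT was low on both PAK1 shRNA arrays, with a log2 fold change of -4.49 (95% interval from -4.68 to -4.31, adjusted p = 2.5e-07 from limma). DIAPH3 is a formin that nucleates and elongates actin filaments. On its brighter probe DIAPH3 had log2 intensities of 11.90 and 11.81 in control cells and 8.87 and 8.77 in PAK1 shRNA cells, a log2 fold change of -3.03 (95% interval from -3.22 to -2.84, adjusted p = 7.4e-07 from limma).

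CEP55 gathers at the midbody late in division and recruits the ESCRT machinery that cuts the bridge. Its brighter probe was printed in 10 spots on each array, which shows the error of a single spot. The processed signal of the 10 spots ranged from 5600 to 6220 on the first control array and from 5000 to 5460 on the second. On the PAK1 shRNA arrays it ranged from 110 to 129 over the 8 spots without an outlier flag on the first and from 104 to 114 over 10 spots on the second. No spot of one group came near a spot of the other, and the SD between spots of an array was between 0.04 and 0.08 on the log2 scale. Averaged over its spots, CEP55 had normalized log2 intensities of 12.11 and 12.28 in control cells and 7.68 and 7.61 in PAK1 shRNA cells. CEP55 changed by -4.55 on the log2 scale (95% interval from -4.76 to -4.34, adjusted p = 3e-07 from limma), and 23 of the 21250 genes fell further. With the background model fitted on all spots the CEP55 value was -3.61.

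With the processing used here the falls lay in 3 ranges. CEP55, CIT, PRC1 and NUSAP1 changed by -4.55 to -4.29 on the log2 scale, and neighbours in this order had overlapping 95% intervals. RACGAP1, ANLN and DIAPH3 followed, from -3.26 to -3.03, again with overlapping intervals between neighbours. The interval of NUSAP1 did not overlap that of RACGAP1, at a distance of 1.03, nor did that of DIAPH3 overlap that of ECT2, at a distance of 1.91. The order within the first 4 is not settled, since with the background model fitted on all spots PRC1 changed by -4.27, NUSAP1 by -3.91, CIT by -3.86 and CEP55 by -3.61. Averaged over its probes CIT changed by -3.11. One of them was not well above background on either PAK1 shRNA array, so this average does not place CIT.

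CEP55, CIT and DIAPH3 had 2 probes each, and both were lower in PAK1 shRNA cells. The sequences of 3 of these probes are given because the probes of CEP55 and of DIAPH3 differed in measured size of change.
DIAPH3 probe A_32_P150891: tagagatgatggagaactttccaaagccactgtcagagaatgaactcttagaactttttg
DIAPH3 probe A_23_P162719: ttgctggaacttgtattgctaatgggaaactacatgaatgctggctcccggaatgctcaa
CEP55 probe A_33_P3291831: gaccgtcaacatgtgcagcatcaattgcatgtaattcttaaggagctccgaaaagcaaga
The first DIAPH3 probe, which stands for the gene above, is on the minus strand of chromosome 13 from 60686155 to 60686214 (hg19). The second DIAPH3 probe, from 60453396 to 60453455 on the same strand, is assigned in the array design to another transcript variant. Its log2 intensity was 10.36 and 10.32 in control cells and 8.13 and 8.05 in PAK1 shRNA cells. This probe changed by -2.25 (95% interval from -2.43 to -2.07, adjusted p = 8e-07 from limma over 26303 probes, of which 32.7% were lower and passed), less than the first, and the intervals of the probes did not overlap. The second CEP55 probe, on the plus strand of chromosome 10 from 95279478 to 95279537, went from 10.66 and 10.70 to 6.96 and 6.99, a log2 fold change of -3.70. It lies on the chromosome before the probe in 10 spots, which spans 95288754 to 95288813. On the PAK1 shRNA arrays the processed signal of the second CEP55 probe was 48.9 and 46.1. These values are close to the offset of 50 added in background correction, which lessens the fall of a dim probe. Whether the gap between the CEP55 probes comes from this was not tested. The second CIT probe, on chromosome 12 from 120125645 to 120125704, had log2 intensities of 7.67 and 7.67 in control cells and was not well above background on either PAK1 shRNA array. Its measured mean there was 5.95, and against the lowest signal well above background CIT was at least 2.79-fold lower on this probe, a bound that does not set this probe apart from the first.

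**Figure D2:**
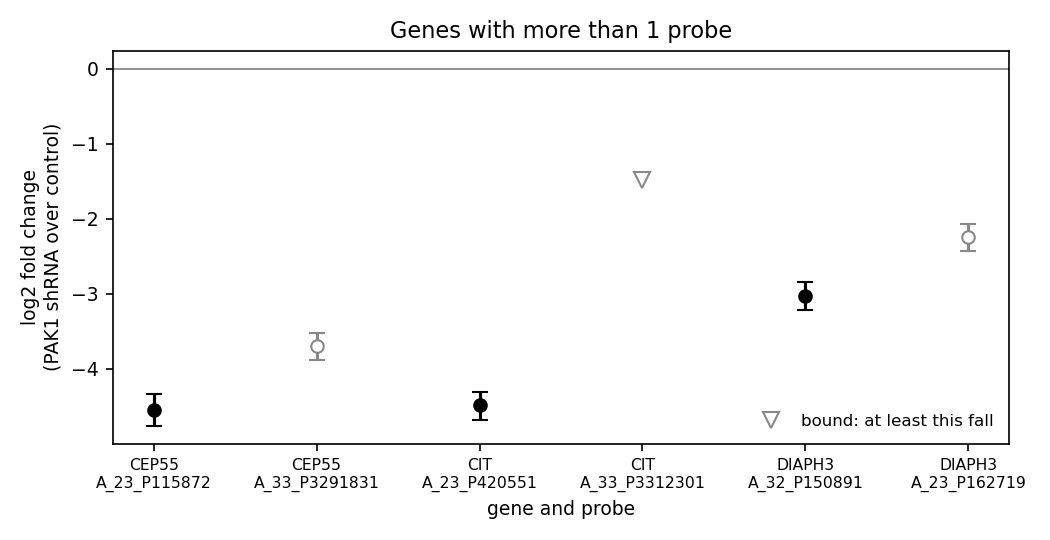
Log2 fold change, PAK1 shRNA over control (vertical axis), of each probe of CEP55, CIT and DIAPH3; filled points are the probes that stand for the gene, open points the others, and error bars are 95% intervals from limma over 2 arrays a group. The 5 probes well above background on all 4 arrays lie below -2, and the triangle marks the second CIT probe at its bound, a fall of at least 2.79-fold, with no interval.

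Promoters were examined because the 8 genes fell together. RefSeq promoter sequences on GRCh38.p14, from 250 bases before to 50 after an annotated start, were matched by symbol for 7 of the 8 genes (RACGAP1 had no entry), with 2 starts for ECT2 and for DIAPH3. The motifs searched on both strands were the cell cycle genes homology region (CHR, TTTGAA), which the MuvB complexes bind in promoters of late cell cycle genes, the CCAAT box (CCAAT), which NF-Y binds, and 2 E2F-type sites (TTGGCGC and TTCCCGC); none is part of another. Below are the 120 bases before the first listed start of 5 genes. CHR and CCAAT letters of either strand are in capitals where the whole match lies within these bases. Matches that run across the start, a CHR in CEP55 and a CCAAT box in ECT2, are left in lower case. ANLN and PRC1 are shown for the CHR close to the start, CEP55 as one of the 4 genes with the larger falls, ECT2 as the gene with the smallest, and DIAPH3 as the gene without a CHR match.
ANLN, chr7:36389742-36389861, plus strand: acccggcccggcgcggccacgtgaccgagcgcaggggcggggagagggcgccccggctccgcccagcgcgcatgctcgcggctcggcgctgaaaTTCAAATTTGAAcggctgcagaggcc
PRC1, chr15:90994536-90994655, minus strand: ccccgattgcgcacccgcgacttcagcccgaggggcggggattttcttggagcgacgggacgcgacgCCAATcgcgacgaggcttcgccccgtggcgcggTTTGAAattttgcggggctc
CEP55, chr10:93496492-93496611, plus strand: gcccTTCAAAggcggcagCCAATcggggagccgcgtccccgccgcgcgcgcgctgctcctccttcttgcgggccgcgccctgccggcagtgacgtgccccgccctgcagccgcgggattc
ECT2, chr3:172750606-172750725, plus strand: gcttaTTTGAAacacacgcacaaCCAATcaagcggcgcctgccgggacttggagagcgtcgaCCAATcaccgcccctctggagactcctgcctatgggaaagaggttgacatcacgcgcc
DIAPH3, chr13:60163929-60164048, minus strand: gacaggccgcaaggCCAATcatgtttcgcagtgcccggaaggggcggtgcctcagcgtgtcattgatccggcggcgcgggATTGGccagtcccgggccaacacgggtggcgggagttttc
The CHR letters were found for 6 of the 7 genes (ANLN, PRC1, ECT2, CEP55, CIT and NUSAP1), where 18.2% of the 27305 genes in the table and 15.2% of its 35116 promoters hold them. In PRC1 the CHR begins 20 bases before the start, with a CCAAT box 53 bases before it. In ANLN a CHR also begins 20 bases before the start and directly follows one on the opposite strand, and no CCAAT box was found. CEP55 has a CHR on the opposite strand 116 bases before the start and one that runs across the start, and ECT2 has one 115 bases before and one after its first start. The CHR letters of NUSAP1 and one of the CIT matches lie after the start. The CCAAT letters were found for 6 of the 7 genes, all but ANLN, against 39.7% of all genes. An E2F-type site was found for ECT2 and NUSAP1 (TTGGCGC, 3.66% of all genes) and for CEP55 (TTCCCGC, 7.82%). ECT2, with the smallest fall, holds CHR and CCAAT letters as do the 4 genes with the larger falls, at differing places. These are matches of letters, not tests of binding, and whether they bear on the size of the falls was not tested.

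The partners of these genes were read from 3 lists. Among 12 kinesins, chromosomal passenger proteins and other central spindle partners, 11 were lower and passed, with a median log2 fold change of -3.54, where 32.0% of all genes were lower and passed. KIF20A, the kinesin that carries Polo kinase to the central spindle, had log2 intensities of 13.48 and 13.45 in control cells and 7.98 and 7.83 in PAK1 shRNA cells, a log2 fold change of -5.56 (adjusted p = 2e-07 from limma). KIF20A thus fell further than any of the 8 genes. BIRC5, or survivin, of the passenger complex changed by -5.32 and KIF14, a kinesin that binds PRC1 and citron kinase, by -4.71. KIF23, the kinesin subunit of centralspindlin, changed by -3.38 (standard error 0.08), beside -3.26 for its partner RACGAP1. INCENP changed by -2.76. CLASP2, a microtubule plus end protein that also acts outside mitosis, changed by -0.90, and by -0.53 on a second, dimmer probe. CLASP1 did not pass (0.12, adjusted p = 0.17 from limma).

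Septins, the filament proteins that anillin anchors at the furrow, were lower and passed in 7 of 11 cases (32.0% of all genes), were higher and passed in 2 (30.8% of all genes) and did not pass in 2, with a median of -0.32. One of the 7, SEPT5, was above background on the control arrays alone, and with probes well above background on all 4 arrays 6 were lower and passed. SEPT8 changed by -1.34 (-1.06 and -1.04 on its dimmer probes) and SEPT9 by -0.80, while SEPT4 rose by 1.32 and SEPT6 by 0.55. SEPT10 fell by 0.62 on the log2 scale, and SEPT12 did not pass (0.22). A second SEPT6 probe, at 0.26, did not pass either. Of 20 abscission and ESCRT-III genes, 8 were lower and passed, 5 were higher and passed and 7 did not pass, with a median of -0.11, and these shares of 40.0% and 25.0% are near the 32.0% and 30.8% of all genes. VTA1, a cofactor of the VPS4 ATPase, changed by -0.94 on its brighter probe and by -0.67 on a second. VPS4A changed by -0.92 and SPAST, which severs microtubules at the bridge, by -0.79. Without either PAK1 shRNA array in turn, 5 genes of this list were lower and passed. CHMP5 rose by 0.97 and MITD1 by 0.64, with a second MITD1 probe at 0.46. ZFYVE26 had the largest rise of the 3 lists, from log2 intensities of 10.90 and 10.76 in control cells to 14.21 and 14.29 in PAK1 shRNA cells. ZFYVE26 encodes spastizin, a protein of the midbody and of lysosomes, and its log2 fold change of 3.42 (standard error 0.08, adjusted p = 6e-07 from limma) rests on 1 probe. TSG101, the ESCRT subunit that CEP55 binds, rose by 0.40, and PDCD6IP (ALIX), its other such partner, was at -0.02 and did not pass.

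A list of 51 G2/M genes outside the 8 gave the level of change of late cell cycle genes at large. Of 50 tested, 49 were lower and passed (98.0%, against 32.0% of all genes), with a median log2 fold change of -3.58 and a range from -5.32 to 0.10, beside -3.77 for the 8 genes; 5 genes of the kinesin and passenger list are also in this list. The 8 genes lay within this range. CEP55, CIT, PRC1 and NUSAP1 fell further than the median of the list, and RACGAP1, ANLN, DIAPH3 and ECT2 fell less. The 5 genes outside the 8 whose profile over the 4 arrays was most like the mean profile of the 8 were AURKA, FOXM1, PKMYT1, TPX2 and CDK1, with root mean square differences of 0.029, 0.034, 0.050, 0.064 and 0.069 on the log2 scale after centring. The mean profile differs mainly between the groups, so likeness over 4 arrays reflects a like size of fall. AURKA, the mitotic kinase of spindle poles, had log2 intensities of 13.15 and 13.17 in control cells and 9.63 and 9.63 in PAK1 shRNA cells, and FOXM1, a transcription factor of late cell cycle genes, changed by -3.53 as AURKA did.

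PAK1, the target of the shRNA, had log2 intensities of 11.19 and 11.27 in control cells and 10.44 and 10.51 in PAK1 shRNA cells. It was thus lower in the cells labelled PAK1 shRNA, at 59.2% of the control level. PAK1 changed by -0.76 on the log2 scale (standard error 0.08, adjusted p = 0.00017 from limma), a value that rests on 1 tested probe. All 8 genes fell further than PAK1 did. Between 78.9% and 83.2% of the probes of an array were well above background, and no member spot was saturated. All 4 arrays were of 1 slide, with the control arrays at the first positions and the PAK1 shRNA arrays at the last, so position on the slide and group cannot be told apart. All 8 basal mammary epithelial markers, such as KRT5, KRT14 and TP63, were well above background on all 4 arrays. Of the markers of other cell types, 5 of 5 leukocyte, 4 of 4 endothelial, 2 of 4 fibroblast and 5 of 6 luminal genes were also well above background on all 4 arrays, by any of their probes, with PGR and COL1A2 above it on none. The summed intensity of the 4 leukocyte markers tested was 1920 to 2060 in control and 2690 to 3100 in PAK1 shRNA cells, that of the 3 fibroblast markers 3890 to 4620 and 7470 to 7700, that of the 3 endothelial markers 957 to 1000 and 752 to 786, and that of the 5 luminal markers 56600 to 57800 and 64400 to 70000. The basal sum over 7 genes was 420000 to 468000 in control and 381000 to 382000 in PAK1 shRNA cells. The part of these differences in the fall of the 8 genes was not tested.

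The fall of the 8 genes was read under 16 other settings of background correction, normalization, filter, probe choice, test and arrays. In all 128 values so obtained the gene was lower and passed, with ranges from -5.07 to -3.61 for CEP55, from -3.44 to -2.72 for ANLN and from -1.21 to -0.96 for ECT2.

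**Figure D3:**
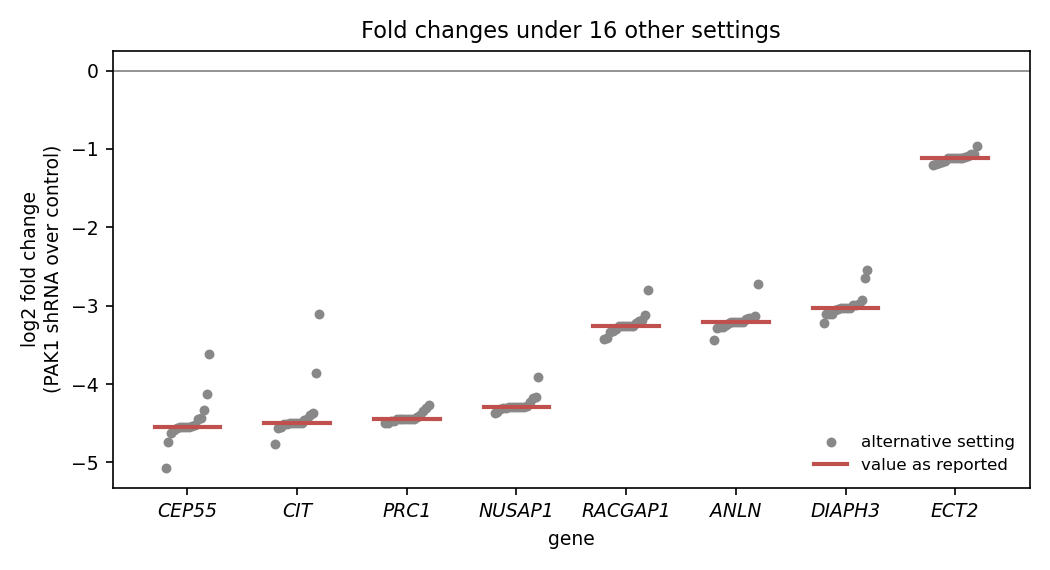
Log2 fold change, PAK1 shRNA over control (vertical axis), of each of the 8 genes as reported (red bar) and under 16 other settings (grey points, sorted by value); the highest CIT point averages in its dim second probe. All points lie below 0, and ECT2 stays above the other 7 genes throughout.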

How the data were processed

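Total RNA of 2 control and 2 PAK1 shRNA samples of MCF10A.B2 cells was measured on 1-colour Agilent arrays. Spot intensities were deposited as written by Agilent Feature Extraction (version 9.5.3.1, per the file headers), not normalized between arrays, with probe coordinates on hg19. A second deposited table holds the authors' log2 values, normalized by methods given as normexp and quantile, with offset and filter not given in the sources used here; it served as an alternative. Its columns had medians of 9.40 to 9.42 and correlated with the values used here at 0.999 or above across 23239 probes.

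Here spots with a flagged background were set missing and intensities were background corrected with normexp (offset 50). The fit on all spots was not kept as the main setting, because 8 and 17 spots of the control arrays had a local background over 100, up to 41412, against 0 on the PAK1 shRNA arrays, and the background mean it fitted was -666 and -740 for control and -10.7 and -10.2 for PAK1 shRNA. Without flagged spots it was between -12.1 and -9.19. Control and feature outlier spots were left out, and arrays were quantile normalized. Spots of a probe were averaged, and 27545 probes were kept, those above background (Agilent's call) on both arrays of a group, less 1242 with a value missing on an array. The brightest probe stood for its gene. The test was limma's (version 3.58.1, R 4.3.3, lmFit and eBayes, with Benjamini-Hochberg adjustment, threshold 0.05), as the methods name limma. The code was tested on simulated data with 200 of 21250 genes changed, a smaller share than the 62.8% that passed in these data. There 58% of changes of 1 on the log2 scale and 99% of changes of 3 were recovered. The number of arrays limits the precision. Symbols of list genes that the array does not hold were looked up in a RefSeq table (GRCh38.p14).

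The members and lists were chosen with earlier results of these data known. Named were all members, PAK1, the 3 lowest and 3 highest genes of each pathway list shown, the 5 genes of most like profile and cell type markers. KIF23, TSG101 and PDCD6IP were named outside this rule, after their values were seen. A further pathway list is not reported here. Alternatives covered background, signal column, normalization, filter, flags, probe rule, the authors' values, test, replicate block and each array left out.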

Additional observations from a re-analysis of the deposited data

How the results depend on the processing

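All 8 genes and PAK1 kept their direction and passed the threshold under the 16 alternatives run, with the highest adjusted p of 0.025, for ECT2 and PAK1, under the methods' t-test (the unpaired test of the general statistics section). Over all genes that test called 4627 lower and 4233 higher after adjustment, against 6797 and 6544 with limma; it does not pool the spread over genes. When single arrays were left out, with the lone array taken to vary as the other group does, 5875 to 6526 genes were lower and 5534 to 6189 higher, CEP55 ranged from -4.63 to -4.44, ECT2 from -1.19 to -1.06 and PAK1 from -0.80 to -0.72. The normexp fit on all spots gave smaller falls, -3.61 for CEP55, -3.86 for CIT and -2.72 for ANLN, and a median of -3.20 over the 8 genes. Scaling to the 75th percentile (processed signal) and median centring moved the median of all genes to 0.11 and 0.14, and the median of the 8 genes was -3.90 and -3.81 there. The septin and abscission counts moved with the setting, while the kinesin and passenger list had 11 genes lower under all 16. Under the methods' t-test 4 septins were lower and 1 higher and 5 abscission genes were lower, as were 5 under 75th percentile scaling.

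With the replicate number as a block all 8 genes passed, at -4.55 for CEP55 and -1.12 for ECT2, and 32.5% of genes were lower and passed. Arrays with the same number did not deviate together (r = 0.012 across 21250 genes). With a single replicate difference per group, this cannot show whether the replicate numbers mark a pairing. Signal over background limits the dim second CIT probe, for which only a bound can be given.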
